A study of Mus musculus with 4 samples.

Results

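The guanylate-binding proteins (GBPs) and the immunity-related GTPases (IRGs) were followed through 4 single-cell libraries from mice bearing CT26 tumours, a mouse colon carcinoma. The set held 10 of the 31253 genes counted, 6 GBPs (Gbp2, Gbp3, Gbp4, Gbp5, Gbp7 and Gbp9) and 4 IRGs (Iigp1, Irgm1, Irgm2 and Igtp). The genes were chosen with earlier results known: they were selected on their NanoCa and mock values in carcinoma cells of the tumour libraries, so those values are given as a description. The tumour and the tumour-draining lymph node (TDLN) were each sampled from mice given NanoCa, named in the series as a lipid nanoparticle carrying calcium crystals, and from mock mice, which had no treatment. The mice were females of 4 to 8 weeks, and each of the 4 groups was 1 library. The number of mice behind a library was not given, and a protocol field named NanoCa for all 4 libraries while the titles and treatment labels separated NanoCa from mock. With 1 library per group there was no test between groups. Intervals are exact 95% intervals that cover counting error only, and a difference between NanoCa and mock cannot be told apart from a difference between 2 libraries.

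GBPs and IRGs are GTPases that interferon gamma induces in most cell types. They assemble on the vacuoles and membranes that shelter bacteria and parasites and help to break them open, and some GBPs promote inflammasome activation. Interferon gamma acts through the receptor chains Ifngr1 and Ifngr2 and the kinases Jak1 and Jak2, and its target promoters often carry a gamma-activated site (GAS). Irf1 and the complex formed after type I interferon bind the interferon-stimulated response element (ISRE).

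The upstream sequences of 7 of the genes carried letters that resemble these sites, and those of 4 are shown as examples. RefSeq windows (build GRCm38.p6, 250 bases before to 50 after a gene's start) were used for 7 of the 10 genes, with Gbp3 having 2 windows. The remaining genes were not searched, so nothing is said about their sites. Capitals mark matches to TTCNNNGAA, a GAS-like motif that reads the same on both strands, or to GAAA and a further GAAA with any 2 bases between them, an ISRE-like motif searched on both strands. Igtp lies on the plus strand at chr11:58199306-58199605, Irgm2 on the plus strand at chr11:58214727-58215026, Gbp5 on the plus strand at chr3:142496684-142496983, and Gbp2 on the plus strand at chr3:142620413-142620712.
Igtp: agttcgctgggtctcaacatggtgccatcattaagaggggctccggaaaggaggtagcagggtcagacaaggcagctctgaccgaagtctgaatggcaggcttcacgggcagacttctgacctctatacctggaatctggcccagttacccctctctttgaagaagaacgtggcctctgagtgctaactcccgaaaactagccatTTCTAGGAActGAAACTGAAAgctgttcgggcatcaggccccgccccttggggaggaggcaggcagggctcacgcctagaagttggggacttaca
Irgm2: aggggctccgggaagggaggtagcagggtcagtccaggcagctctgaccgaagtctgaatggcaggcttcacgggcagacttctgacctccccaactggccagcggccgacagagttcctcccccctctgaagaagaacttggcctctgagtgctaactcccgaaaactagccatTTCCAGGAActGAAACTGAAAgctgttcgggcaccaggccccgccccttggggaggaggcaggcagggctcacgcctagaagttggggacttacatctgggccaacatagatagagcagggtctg
Gbp5: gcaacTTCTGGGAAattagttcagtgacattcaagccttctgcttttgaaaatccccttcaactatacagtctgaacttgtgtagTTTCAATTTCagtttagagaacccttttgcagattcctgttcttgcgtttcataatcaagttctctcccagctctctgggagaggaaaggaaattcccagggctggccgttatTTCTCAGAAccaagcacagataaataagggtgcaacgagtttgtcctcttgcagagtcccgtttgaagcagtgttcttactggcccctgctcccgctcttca
Gbp2: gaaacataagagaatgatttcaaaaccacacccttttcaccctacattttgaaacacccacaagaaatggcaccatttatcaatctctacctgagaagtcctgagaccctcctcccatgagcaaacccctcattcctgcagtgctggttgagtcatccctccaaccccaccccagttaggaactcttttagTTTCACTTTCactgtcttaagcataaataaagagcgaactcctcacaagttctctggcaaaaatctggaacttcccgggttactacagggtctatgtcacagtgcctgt
Igtp and Irgm2 are neighbouring IRG genes, and each window held a GAS-like match with an ISRE-like match just downstream of it, starting 45 and 34 bases before the start of Igtp and 75 and 64 bases before that of Irgm2. The windows of this pair shared an identical run of 61 bases, from base 240 of the Igtp window and base 210 of the Irgm2 window. This run lies downstream of the marked matches and does not contain them, and the GAS-like matches of the pair were not identical. Gbp5 held 2 GAS-like matches and 1 ISRE-like match, while Gbp2 held 1 ISRE-like match and no GAS-like match. Among the 7 genes whose windows were used, 7 held an ISRE-like match and 4 (Igtp, Irgm2, Gbp5 and Gbp7) held a GAS-like match as well. Of all 32851 RefSeq promoter windows of that length, 3.44% held the ISRE-like motif, 8.30% the GAS-like motif and 0.454% both, and no match overlapped a match of the other motif in the 4 windows shown. A match describes letters and is no measure of binding.

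The libraries held 74909974 to 167924801 unique molecular identifiers (UMIs) from 3' ends. A barcode was kept with 200 or more genes and no more than 10% of its UMIs mitochondrial, and 11215 tumour cells of NanoCa, 9281 of mock, 11013 TDLN cells of NanoCa and 10268 of mock remained. Levels are UMIs of a gene per 1000000 UMIs of the summed cells (CPM), which do not scale with transcript length. Carcinoma-like cells were those with at least 2 UMIs of Rhox5, a homeobox gene taken as a marker of the carcinoma, and none of Ptprc, which encodes CD45. The tumour held 5832 of them in NanoCa and 4656 in mock, and the TDLN 229 in NanoCa and 805 in mock. The labels name immune cells and a CD45 antibody without giving the gate, yet these carcinoma-like cells made up much of both tumour libraries. Their median depth was 22480.5 and 24963.5 UMIs in tumour NanoCa and mock and 58617 and 55603 UMIs in TDLN NanoCa and mock. In them 9 carcinoma markers summed to 8456 to 10221 CPM and 8 T cell markers to 3.66 to 7.35 CPM. The 9 include the gating gene Rhox5, at 352 CPM in tumour NanoCa, and 4 of the 9 had no UMI in TDLN NanoCa. In T cells of tumour NanoCa the same 9 summed to 2923 CPM, so the sum alone does not establish a carcinoma identity. The 10 monocyte and macrophage markers summed to 142 CPM in tumour NanoCa and 103 in tumour mock, and to 27.4 in TDLN NanoCa and 57.9 in TDLN mock. The 8 fibroblast markers, a class that held these GTPases at high levels, summed to 533 CPM in tumour NanoCa and 501 in tumour mock, and to 796 in TDLN NanoCa and 533 in TDLN mock. The keratin gene Krt8 was at 14.1 CPM in tumour NanoCa and 2.29 in tumour mock, and at 29.2 in TDLN NanoCa and 0.704 in TDLN mock, so the carcinoma-like cells differed between NanoCa and mock in more than the GTPases, and the part of that in the results was not tested. Krt8 was higher in the fibroblast class of the tumour, at 178 CPM in NanoCa and 427 in mock. Their estimated share of free RNA was 11.2% in tumour NanoCa and 6.89% in tumour mock, and 0.510% in TDLN NanoCa and 0.843% in TDLN mock. Between any pair of libraries 121 to 183 barcodes were shared. Just outside the threshold, cells with 1 UMI of Rhox5 and none of Ptprc held the 10 genes at 301 CPM in tumour NanoCa and 638 in tumour mock, and at 310.2 in TDLN NanoCa and 852 in TDLN mock. Just inside it, cells with 2 UMIs of Rhox5 held them at 259.8 CPM in tumour NanoCa and 508 in tumour mock, and at 523 in TDLN NanoCa (17 cells) and 2572 in TDLN mock (23 cells).

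In carcinoma-like cells the summed level of the 10 genes was lower in NanoCa than in mock in both tissues. The ratio was larger in the TDLN, a difference between tissues that could not be tested. The sum was 159 CPM (157 to 161) in tumour NanoCa, against 385 CPM (381 to 388) in tumour mock, a log2 ratio of -1.27 (-1.30 to -1.25). In the TDLN it was 179.9 CPM (173 to 187) in NanoCa, against 1135 CPM (1125 to 1145) in mock, a log2 ratio of -2.66 (-2.72 to -2.60). Cells of the TDLN mock library thus stood apart from the other 3 groups, which lay within 159 to 385 CPM. Each of the 10 genes was at least 1.5-fold lower in NanoCa in the tumour, where 2.79% of the genes tested were lower and 7.85% higher, and this contrast was used to choose them. In the TDLN 10 of 10 were also at least 1.5-fold lower, where 7.49% of the genes tested were lower and 5.45% higher. A gene entered with a total of 50 or more UMIs in the pair of libraries, and it counted as lower or higher when its interval lay on that side of 0 as well. The median log2 ratio of the 10 genes in the TDLN was -2.55, against 0.03 over all genes tested.

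**Figure D1:**
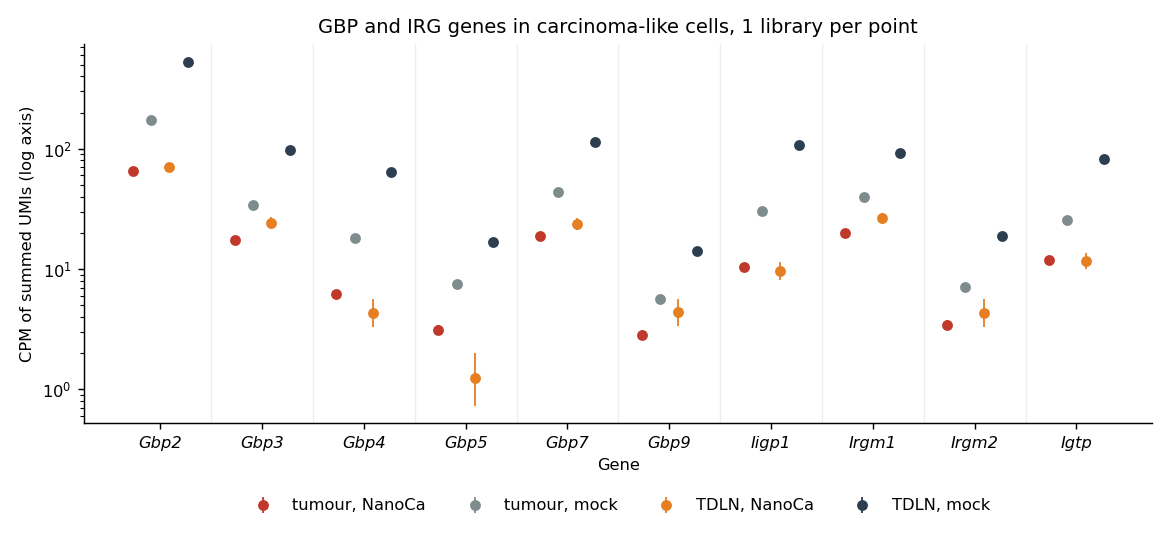
Levels of the 10 genes in carcinoma-like cells, as CPM of summed UMIs on a log axis, with 1 point per library and exact Poisson 95% intervals. For each gene the TDLN mock point is the highest of the 4, and Gbp2 reaches 527 CPM there, against 70.1 CPM in TDLN NanoCa.

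Gbp2 (ENSMUSG00000028270), recruited to vacuoles around bacteria and parasites, had the most UMIs of the GBPs in these cells. It was at 64.9 CPM in tumour NanoCa and 173 in tumour mock, and at 70.1 in TDLN NanoCa and 527 in TDLN mock. Its log2 ratio of NanoCa over mock was -1.41 (-1.45 to -1.37) in the tumour and -2.91 (-3.01 to -2.82) in the TDLN. The TDLN mock library stood apart from the other 3 for Gbp2. Gbp3 (ENSMUSG00000028268), a neighbour of Gbp2 on chromosome 3, was at 17.6 CPM in tumour NanoCa and 34.3 in tumour mock, and at 24.2 in TDLN NanoCa and 97.5 in TDLN mock. Gbp7 (ENSMUSG00000040253), tied in mouse macrophages to assembly of the NADPH oxidase, was at 18.9 CPM in tumour NanoCa and 43.4 in tumour mock, and at 23.6 in TDLN NanoCa and 114 in TDLN mock. For Gbp3 and Gbp7 the NanoCa levels of both tissues lay below the mock level of either tissue.

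Gbp5 (ENSMUSG00000105504), which promotes NLRP3 inflammasome assembly in macrophages, was the scarcest GBP in the TDLN NanoCa cells. It was at 3.14 CPM in tumour NanoCa and 7.53 in tumour mock, and at 1.25 in TDLN NanoCa (17 UMIs) and 16.7 in TDLN mock (737 UMIs). The TDLN log2 ratio of Gbp5 was -3.74. Gbp4 (ENSMUSG00000079363), of the chromosome 5 group, was at 6.24 CPM in tumour NanoCa and 18.0 in tumour mock, and at 4.34 in TDLN NanoCa and 63.8 in TDLN mock. It had the most negative TDLN log2 ratio of the 10 genes, -3.88 (-4.28 to -3.51). Gbp9 (ENSMUSG00000029298), also on chromosome 5, was at 2.84 CPM in tumour NanoCa and 5.59 in tumour mock, and at 4.41 in TDLN NanoCa and 14.0 in TDLN mock. Its TDLN log2 ratio of -1.67 was the least negative of the 10. UMIs of close GBP copies may be split between paralogs, so levels of single GBPs carry that uncertainty.

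Among the IRGs, Iigp1 (ENSMUSG00000054072) is an effector that coats and disrupts the vacuole of Toxoplasma gondii. It was at 10.3 CPM in tumour NanoCa and 30.6 in tumour mock, and at 9.63 in TDLN NanoCa and 108 in TDLN mock, with a TDLN log2 ratio of -3.49 (-3.75 to -3.23). Irgm1, Irgm2 and Igtp (also called Irgm3) are the regulatory IRGs, which keep the effectors off the cell's own membranes. Irgm1 (ENSMUSG00000046879) was at 20.1 CPM in tumour NanoCa and 40.0 in tumour mock, and at 26.3 in TDLN NanoCa and 92.7 in TDLN mock. Igtp (ENSMUSG00000078853) was at 11.8 CPM in tumour NanoCa and 25.3 in tumour mock, and at 11.7 in TDLN NanoCa and 82.7 in TDLN mock. Irgm2 (ENSMUSG00000069874) was at 3.43 CPM in tumour NanoCa and 7.16 in tumour mock, and at 4.34 in TDLN NanoCa and 18.7 in TDLN mock. Their TDLN log2 ratios of -1.82 (Irgm1), -2.11 (Irgm2) and -2.82 (Igtp) were all less negative than that of Iigp1. IRGs held 26.6% to 28.9% of the UMIs of the 10 genes in the 4 sets of carcinoma-like cells, while the summed level of all 10 ran from 159 to 1135 CPM.

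The same libraries set TDLN against tumour. In mock mice 10 of 10 genes were at least 1.5-fold higher in carcinoma-like cells of the TDLN than of the tumour, where 11.9% of the genes tested were higher and 4.95% lower, with a summed log2 ratio of 1.56. The log2 ratios ran from 1.15 for Gbp5 to 1.82 for Gbp4 and Iigp1, with a median of 1.45 against 0.10 over all genes tested. In NanoCa mice the summed log2 ratio of TDLN over tumour was 0.18 (0.11 to 0.24), with a median of 0.21 against 0.09 over all genes. There Gbp9 was the 1 gene at least 1.5-fold higher in the TDLN (log2 0.64), where 8.38% of the genes tested were higher, and Gbp5 the 1 gene lower (log2 -1.33), where 5.49% were lower. These contrasts share their libraries with the NanoCa over mock contrasts and are no separate evidence. The TDLN carcinoma-like cells were also deeper, as given above, and at 1 fixed depth per cell the mean UMIs of the 10 genes were 0.674 in TDLN NanoCa and 0.552 in tumour NanoCa, and 3.92 in TDLN mock and 1.28 in tumour mock.

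Cell by cell, more of the carcinoma-like cells held these transcripts in mock than in NanoCa. After thinning each carcinoma-like cell to 3000 UMIs, 77.0% of tumour NanoCa cells and 59.8% of tumour mock cells held no UMI of the 10 genes, as did 73.9% of TDLN NanoCa cells and 30.3% of TDLN mock cells. Cells with at least 5 such UMIs made up 2.91% (2.49 to 3.37) in tumour NanoCa and 8.08% (7.31 to 8.90) in tumour mock, and 4.13% (1.90 to 7.69) in TDLN NanoCa and 26.9% (23.9 to 30.1) in TDLN mock. Without thinning these shares were 14.7% in tumour NanoCa and 35.0% in tumour mock, and 39.3% in TDLN NanoCa and 83.9% in TDLN mock. Thinning left out the shallower cells, 55 in NanoCa and 39 in mock of the tumour, and 11 in NanoCa and 6 in mock of the TDLN. The tenth of cells with the most UMIs of the 10 genes held 76.5% of those UMIs in tumour NanoCa and 63.5% in tumour mock, and 76.2% in TDLN NanoCa and 45.8% in TDLN mock.

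The genes were detected in the same cells to a limited degree. Across thinned cells the median Pearson r over pairs of the 10 genes was 0.19 in tumour NanoCa, 0.22 in tumour mock, 0.24 in TDLN NanoCa (9 genes, since Irgm2 had no UMI left) and 0.26 in TDLN mock. The closest pair was Gbp2 and Iigp1 in both TDLN libraries, with r of 0.62 in NanoCa and 0.51 in mock. The sum of the 10 genes correlated with Isg15, an interferon-induced gene, at r of 0.42 in tumour NanoCa and 0.35 in tumour mock. In the TDLN that r was 0.35 in NanoCa and 0.37 in mock. For Irf1 r was 0.23 in tumour NanoCa, 0.27 in tumour mock, 0.25 in TDLN NanoCa and 0.42 in TDLN mock. For the receptor genes Ifngr1 and Ifngr2 r lay between -0.01 and 0.08. For Rhox5, Krt8, Actb and Mki67 it lay between -0.13 and 0.07. These values describe cells that share a library, with sparse counts at 1 depth, and give no test.

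**Figure D2:**
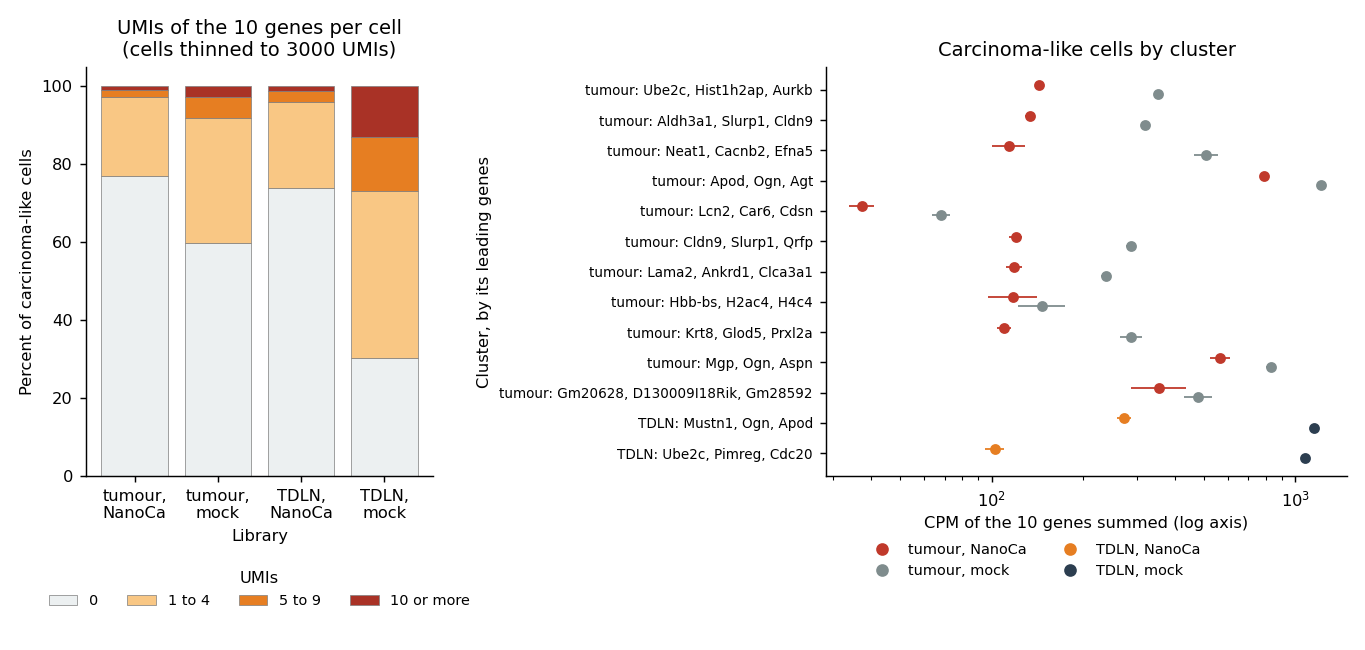
Left, percent of carcinoma-like cells by UMIs of the 10 genes after thinning to 3000 UMIs per cell; right, CPM of the 10 genes summed in carcinoma-like cells of each cluster (log axis), with exact Poisson 95% intervals and clusters named by their leading genes. Cells with 10 or more UMIs make up 13.1% in TDLN mock, against 1.38% in TDLN NanoCa, and in each of the 13 clusters the NanoCa point lies left of the mock point.

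Among clusters with enough carcinoma-like cells in both libraries of a tissue, 11 in the tumour and 2 in the TDLN, each of the 13 had a lower summed level in NanoCa. In the tumour the clusters differed among themselves by more than NanoCa and mock did within any 1 of them. A cluster led by Apod, Ogn and Agt held 787 CPM in NanoCa and 1217 in mock, and a cluster led by Lcn2, Car6 and Cdsn held 37.4 CPM in NanoCa and 68.2 in mock. A cluster led by the cell-cycle genes Ube2c and Aurkb held 144 CPM in NanoCa and 353 in mock. The most negative log2 ratio, -2.16 (-2.39 to -1.93), was in the cluster led by Neat1, Cacnb2 and Efna5. The least negative, -0.32 (-0.69 to 0.06), was in the cluster led by Hbb-bs, the 1 cluster of 13 whose interval held 0. The tumour clusters led by Neat1, Hbb-bs and Gm20628 were unnamed, and most of their cells missed the Rhox5 or Ptprc threshold. Only their carcinoma-like cells were counted. Among the other tumour clusters the log2 ratios ran from -1.39 in the cluster led by Krt8 to -0.55 in the cluster led by Mgp. In the TDLN the cluster led by Mustn1, Ogn and Apod held 273 CPM in NanoCa and 1155 in mock, and the cycling cluster led by Ube2c and Pimreg 102 CPM in NanoCa and 1079 in mock. The makeup of clusters differed between libraries, and with both sides given the same makeup the summed log2 ratio was -1.09 in the tumour and -2.56 in the TDLN. Clusters were built on 2000 variable genes of each tissue. With 1 library per group, the levels of the GTPases in clusters are a description.

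Other genes of the same families followed in the carcinoma-like cells. Of 17 further GBP, IRG and related GTPase genes listed, 13 were in the files and 11 were tested, and 9 were at least 1.5-fold lower in tumour NanoCa and 10 in TDLN NanoCa. Gbp10 had a log2 ratio of -1.81 in the tumour and -4.04 in the TDLN, and F830016B08Rik, an IRG-like gene, of -1.68 in the tumour and -4.03 in the TDLN. The list's median was -1.19 in the tumour and -2.76 in the TDLN, against 0.03 over all genes tested in each tissue. Gbp10 is a close copy within the Gbp6 group, so reads of that group may be split between copies.

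The interferon gamma pathway genes moved less. Of 11 tested receptor and signalling genes, 2 were lower in tumour NanoCa and 1 higher, and 6 were lower in TDLN NanoCa, with list medians of -0.12 in the tumour and -0.73 in the TDLN. Irf1 was at 65.5 CPM in tumour NanoCa and 111 in tumour mock, and at 41.4 in TDLN NanoCa and 157 in TDLN mock. Socs1, which dampens Jak signalling, went the other way in the tumour, with 42.0 CPM in NanoCa and 24.0 in mock. The receptor genes did not pass 1.5-fold, with Ifngr2 at log2 0.44 in the tumour and 0.14 in the TDLN and Ifngr1 at -0.12 in the tumour and -0.07 in the TDLN. Batf2 had the most negative TDLN ratio of that list, -2.67.

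The tested interferon gamma targets that are not GTPases all had negative log2 ratios in both tissues, and more of them passed 1.5-fold in the TDLN. Of this list 4 of 19 tested were lower in tumour NanoCa and 17 of 18 in TDLN NanoCa, with medians of -0.50 in the tumour and -1.47 in the TDLN. Ido1, which degrades tryptophan, had a log2 ratio of -1.93 in the tumour, and it had no UMI in TDLN NanoCa, against 9.81 CPM in TDLN mock. The chemokine gene Cxcl9 had a tumour log2 ratio of -1.07. At the other end of the list in the TDLN, Tapbp was at -0.72 and B2m, the light chain of MHC class I, at -0.54 with 985 CPM in NanoCa and 1437 in mock.

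Genes of the type I interferon list did not follow the GTPases. Of 21 tested, 1 was lower in tumour NanoCa (Irf9, log2 -0.60) and 1 in TDLN NanoCa (Stat2, log2 -1.24), with medians of -0.22 in the tumour and -0.11 in the TDLN. The 2'-5' oligoadenylate synthetase gene Oas1a was at 65.3 CPM in TDLN NanoCa and 46.5 in TDLN mock. Set against the tumour within NanoCa mice, 15 of the 21 were at least 1.5-fold higher in the TDLN, among them Oas1a with 65.3 CPM in the TDLN and 24.5 in the tumour, while 1 of the 10 GTPases was. In mock mice 11 of 21 were higher in the TDLN, where all 10 GTPases were. Of the inflammasome and autophagy genes, 1 of 17 was lower in tumour NanoCa (Casp1, log2 -0.61) and 1 higher (the autophagy gene Atg3, log2 0.84), and 2 of 14 were lower in TDLN NanoCa. Those 2 were the inflammatory caspase genes Casp1, with 8.23 CPM in NanoCa and 37.1 in mock, and Casp4, with a log2 ratio of -1.77.

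Across the other cell classes the summed level spanned a wide range. T cells held 586 CPM in tumour NanoCa and 555 in tumour mock, and 624 in TDLN NanoCa and 594 in TDLN mock. NK cells held 565 CPM in tumour NanoCa and 524 in tumour mock, and 559.7 in TDLN NanoCa and 717 in TDLN mock. B cells were the lowest of the immune classes that had both tissues, with 172 CPM in tumour NanoCa and 251 in tumour mock, and 189 in TDLN NanoCa and 244 in TDLN mock. Endothelial cells of the tumour were the highest, with 1263 CPM in NanoCa and 1867 in mock, from 73 and 57 cells. Fibroblasts held 583 CPM in tumour NanoCa, 1046 in tumour mock and 998 in TDLN mock. The fibroblast class also held the 9 carcinoma markers at 7812 CPM in tumour NanoCa, 8988 in tumour mock and 4582 in TDLN mock, near the carcinoma-like level in the tumour, so its name rests on its other markers. Carcinoma-like cells of TDLN mock, at 1135 CPM, thus lay above each T, B and NK cell value. Levels of classes under 100 cells (endothelial, some fibroblast, neutrophil and plasmacytoid dendritic cells) are shown with no ratio.

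**Figure D3:**
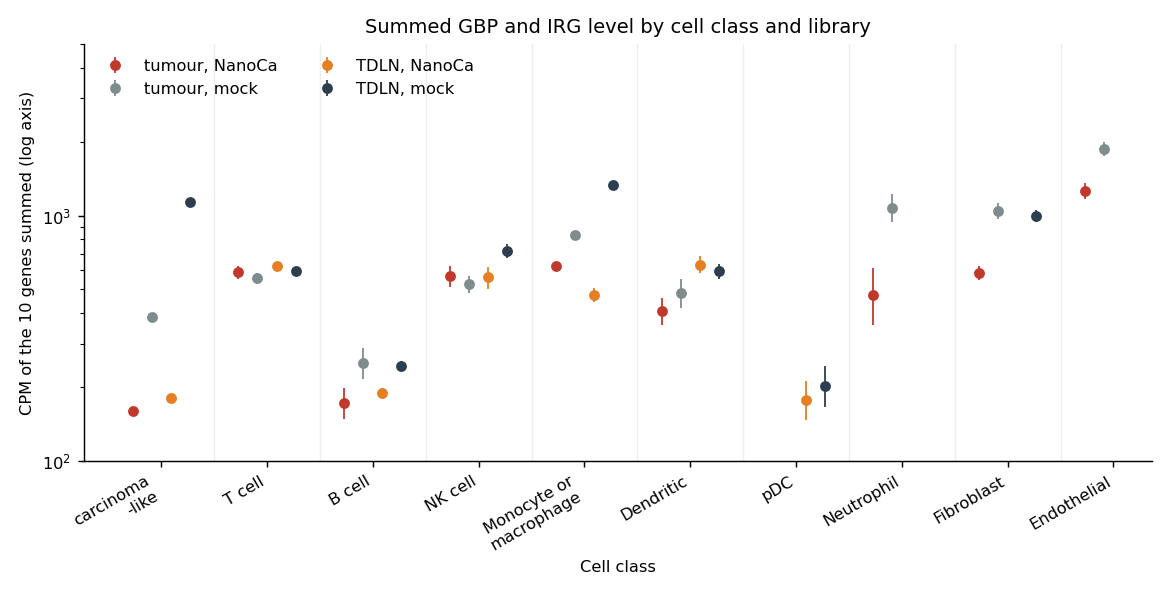
Summed CPM of the 10 genes (log axis) by cell class and library, with exact Poisson 95% intervals. T cells lie between 555 and 624 CPM in all 4 libraries, while carcinoma-like cells run from 159 to 1135 CPM.

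Each gene had its own order of classes. Over 25 profiles of a class in a library, Gbp2 and Gbp3 were highest in carcinoma-like cells of TDLN mock. Among these profiles Gbp7, Iigp1 and Irgm1 were highest in monocytes and macrophages of TDLN mock. Iigp1 was higher still in tumour endothelial cells and tumour mock fibroblasts, which had too few cells to be among the profiles. Igtp was highest in T cells of TDLN NanoCa with 144 CPM, close to the 132 CPM of TDLN mock. Gbp4 and Gbp5 were highest in dendritic cells of TDLN NanoCa and Gbp9 in those of TDLN mock. Irgm2 was highest in neutrophils of tumour mock, at 70.6 CPM, in a class whose estimated share of free RNA there was 52.8%. Gbp3 followed the other 9 genes most closely over these profiles (r = 0.85) and Gbp9 least (r = 0.38).

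Dendritic cells of the TDLN held GBPs almost without IRGs. These cells were 1 cluster led by H2-M2, Ccl22 and Fscn1, genes of mature dendritic cells, with 109 cells in NanoCa and 129 in mock. Gbp5 was at 172 CPM in NanoCa and 123 in mock. Gbp2 was at 149 CPM in NanoCa and 144 in mock, and Gbp4 at 144 CPM in NanoCa and 112 in mock. The GBPs were not alike there, since Gbp9 was at 95.3 CPM in NanoCa and 108 in mock and Gbp7 at 4.05 CPM in NanoCa and 13.2 in mock. Iigp1 was at 2.03 CPM in NanoCa (2 UMIs) and 7.41 in mock (9 UMIs), and Irgm1, Irgm2 and Igtp were between 3.04 and 16.5 CPM in either library. IRGs thus held 4.01% (2.61 to 5.87) of the UMIs of the 10 genes in NanoCa and 6.94% (5.20 to 9.05) in mock. Dendritic cells of the tumour, a different cluster led by MHC class II genes, had IRG shares of 31.0% in NanoCa and 33.5% in mock. In fibroblasts IRGs held 419 of 838 such UMIs in tumour NanoCa and shares of 59.2% in tumour mock and 59.6% in TDLN mock, and in tumour endothelial cells shares of 38.1% in NanoCa and 42.9% in mock. Iigp1 led there, with 160.2 CPM in tumour NanoCa fibroblasts and 362 in tumour mock, and in endothelial cells with 295 CPM in NanoCa and 529 in mock.

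**Figure D4:**
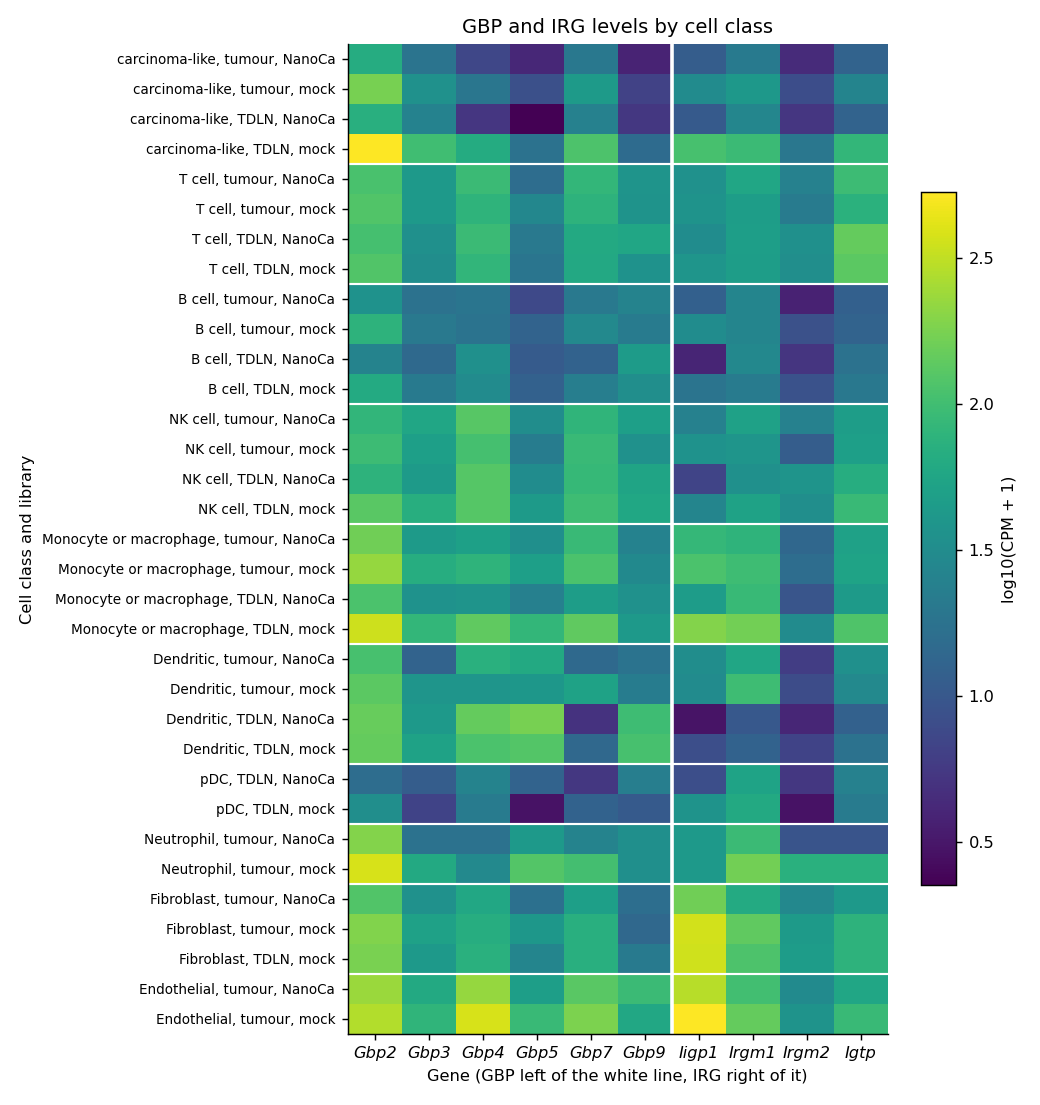
Level of each gene as log10(CPM + 1), by cell class and library, with GBPs left of the white line and IRGs right of it. Dendritic cells of the TDLN are bright for Gbp2, Gbp4, Gbp5 and Gbp9 and dark for Gbp7 and the 4 IRGs, with Iigp1 at 2.03 CPM in NanoCa.

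NanoCa and mock differed in monocytes and macrophages of the TDLN in the same direction as in carcinoma-like cells. Their summed level was 474 CPM in NanoCa (124 cells) and 1333 in mock (210 cells), a log2 ratio of -1.49 (-1.60 to -1.39). Of the 10 genes, 9 were at least 1.5-fold lower in NanoCa, where 8.72% of the genes tested were lower and 7.32% higher. Iigp1 was at 45.2 CPM in NanoCa and 192 in mock, the most negative of these ratios (log2 -2.08). Gbp4 was at 36.7 CPM in NanoCa and 138 in mock, and Gbp2 at 112 in NanoCa and 345 in mock. Irgm1 was at 88.5 CPM in NanoCa and 166 in mock, the smallest of the 9 differences. Gbp9, at 34.7 CPM in NanoCa and 42.4 in mock, did not pass. With the estimated free RNA subtracted, which was 3.84% of UMIs in NanoCa and 5.67% in mock, 9 genes were again lower. Cells with at least 5 UMIs of the 10 genes after thinning made up 10.2% in NanoCa and 29.6% in mock. In this class 8 T cell markers summed to 182 CPM in NanoCa and 58.9 in mock, and 10 monocyte and macrophage markers to 14640 in NanoCa and 20215 in mock, and their part in the result was not tested. The class was 1 cluster in the TDLN, and shifts between macrophage states inside it were not tested.

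In the tumour, monocytes and macrophages held 625 CPM in NanoCa and 832 in mock, and 2 of 10 genes were lower, where 2.54% of the genes tested were lower and 7.59% higher. These were Gbp3 (log2 -0.62) and Gbp4 (log2 -0.65). Irf1 in the same cells was at 92.2 CPM in NanoCa and 198 in mock, and Socs1 at 33.2 in NanoCa and 15.7 in mock.

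In T cells the summed level of the GTPases was close between NanoCa and mock. Its log2 ratio was 0.08 in the tumour and 0.07 in the TDLN. The TDLN class left out a cluster led by Cxcr6, Tnfsf8 and Il4 (692 cells) and another led by Fabp5, H1f1 and Ifng (100 cells). In both, 8 of 8 T cell markers were at least 1.5-fold above the other clusters, but the naming rule left them unnamed. With the estimated free RNA subtracted, the tumour log2 ratio was 0.29, from 717 CPM in NanoCa and 588 in mock. Without that subtraction, 1 of 10 genes was lower in tumour NanoCa (Gbp5, 14.9 CPM against 27.4 in mock). There 2.96% of the genes tested were lower and 6.21% higher. In the TDLN 1 was higher (Gbp9, 56.2 CPM in NanoCa and 35.3 in mock, log2 0.67 with an interval of 0.54 to 0.80), where 2.36% were higher and 7.62% lower. In tumour T cells Ifng itself was at 78.0 CPM in NanoCa and 129 in mock, a log2 ratio of -0.73. That class pooled several clusters, and the cluster with Cd8a, Pdcd1 and Ifng among its leading genes held 33 NanoCa and 115 mock cells. The part of this makeup in the Ifng ratio was not tested. In TDLN T cells 13 of 21 type I interferon genes were at least 1.5-fold higher in NanoCa (list median 0.77), led by Ifit1 with 31.8 CPM in NanoCa and 6.52 in mock, so that list and the GTPases did not move together.

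B cells of the TDLN had 4 of 10 genes lower in NanoCa, where 7.11% of the genes tested were lower and 2.19% higher. This class left out a cluster led by Igha (361 cells) and another led by Ighv7-3 and Mef2b (234 cells). Both had 8 of 8 B cell markers at least 1.5-fold above the other clusters, but the naming rule left them unnamed. Gbp2 was at 25.0 CPM in NanoCa and 62.7 in mock, and Iigp1 at 2.97 in NanoCa and 17.2 in mock. Gbp7 (log2 -0.95) and Irgm2 (log2 -0.92) were the other two. The estimated share of free RNA was 11.1% in NanoCa and 16.8% in mock, and with it subtracted Gbp2 turned to 17.7 CPM in NanoCa and 6.81 in mock, a log2 ratio of 1.38. None of the 4 lower calls held with free RNA subtracted, since Gbp7 was at a log2 ratio of -0.15 and Iigp1 and Irgm2 fell under the UMI minimum. Irgm1 (log2 1.31) and Igtp (log2 0.76) were then higher in NanoCa. Of 19 type I interferon genes tested there, 12 were higher in NanoCa, with Ifit3 at 18.5 CPM in NanoCa and 3.48 in mock. In B cells of the tumour 1 gene had enough UMIs for a ratio, Gbp2, with 35.3 CPM in NanoCa and 76.6 in mock, where 3.19% of the genes tested were lower and 7.39% higher, and free RNA was estimated at 26.1% in NanoCa and 31.4% in mock.

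NK cells of the TDLN had 2 of 9 tested genes lower in NanoCa, where 5.79% of the genes tested were lower and 7.35% higher, namely Gbp2 (log2 -0.77) and Gbp3 (log2 -0.64). With free RNA subtracted neither passed, with log2 ratios of -0.38 for Gbp2 and -0.56 for Gbp3. In tumour NK cells 0 of 8 passed in either direction, where 5.48% of the genes tested were higher and 2.28% lower. In TDLN dendritic cells 0 of 5 passed, where 6.48% were higher and 4.81% lower. The 5 genes under the UMI minimum there were the 4 IRGs and Gbp7.

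**Figure D5:**
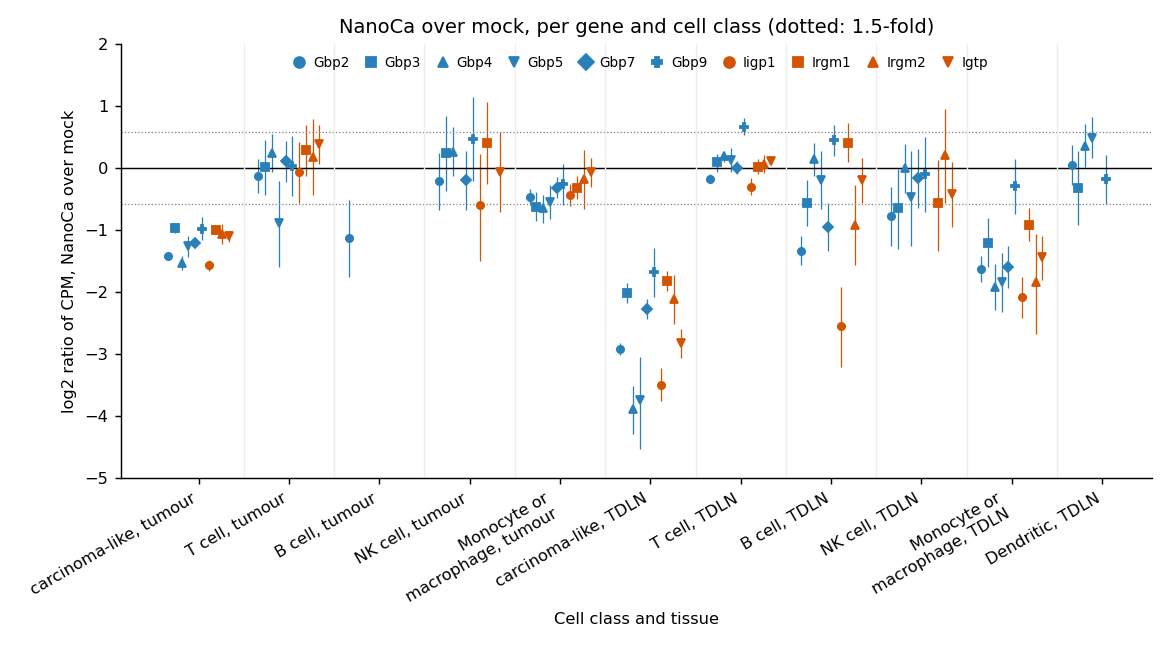
Log2 ratio of CPM, NanoCa over mock, for each gene with a total of 50 or more UMIs, by cell class and tissue, with exact 95% intervals and dotted lines at 1.5-fold. All 10 genes lie below the lower line in carcinoma-like cells of both tissues, as do 9 in TDLN monocytes and macrophages, while the summed T cell ratios are 0.08 in the tumour and 0.07 in the TDLN.

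The genes whose levels over the 25 profiles were most like the summed level of the 10 were led by Gbp2b, another GBP (r = 0.858). Hpcal1 (r = 0.726), Glrx (r = 0.712), the RNA sensor gene Ifih1 (r = 0.695) and Ddx60 (r = 0.688) came next among 6447 genes. Zbp1 (r = 0.681), Gbp8 (r = 0.680) and Nmi (r = 0.675) were also among the first 10. The profiles share libraries and free RNA, so these are descriptions with no test.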

How the data were processed

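The deposited files held raw counts of unique molecular identifiers (UMIs) per gene and barcode in 4 matrices, written by Cell Ranger 7.1.0 per the file headers, from 10x 3' v2 libraries per the labels. The genome build was not given in the sources used here. Kept barcodes had 200 or more genes and no more than 10% of UMIs from mitochondrial genes, with median depths of 12629 UMIs (NanoCa) and 12246 (mock) in the tumour, and 4238 (NanoCa) and 4429 (mock) in the TDLN. Clusters were made per tissue from both of its libraries with scanpy 1.11.5 (2000 variable genes, 30 components, 15 neighbours, leidenalg 0.10.2 at resolution 1), and clusters were named from fixed marker lists. Doublets were the cells with the highest Scrublet scores, at 0.8% per 1000 cells. They were left out of every class other than the carcinoma-like cells, whose values were computed with and without them. UMIs were summed per class and library; classes needed 50 cells for a level and 100 in both libraries for a ratio. Ratios carry exact conditional binomial intervals, levels exact Poisson intervals and shares exact Clopper-Pearson intervals, all at 95%. UMIs were taken as single molecules, so the intervals cover counting error only. The free RNA of an immune class was estimated from its level of Rhox5, Krt8 and Krt18, took the profile of the whole library, and was subtracted as an alternative. The call rule was also run on simulated summed counts with known fold changes. Those counts held counting error only, so the simulation could not cover differences between libraries. Python 3.11.15, numpy 2.4.6, scipy 1.17.1, pandas 2.3.3 and R 4.3.3 with edgeR 4.0.16 (normalization factors only) were used. The 10 genes and all lists were chosen with earlier results of these data known. In each comparison and list the 2 most negative and 2 most positive genes could be named, beside the 10 genes themselves. All 4 libraries carry 1 batch date, and nothing was split by batch. The result for 1 gene of the interferon signalling list is not reported here.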

Additional observations from a re-analysis of the deposited data

How the results depend on the processing

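Under each alternative tried for the carcinoma-like cells, 10 of 10 genes remained at least 1.5-fold lower in NanoCa in the tumour and in the TDLN, and 10 of 10 higher in the TDLN than in the tumour in mock mice. The summed log2 ratio of the tumour (-1.27) was -1.31 with at least 5 UMIs of Rhox5, -1.49 with Krt8 and Krt18 required, -1.21 without cells holding an immune marker, -1.24 without doublets, -1.31 with free RNA subtracted, -1.09 with the same cluster makeup and -1.30 with median-of-ratios scaling. That of the TDLN (-2.66) was -2.75 with Krt8 and Krt18 required, -2.44 without cells holding an immune marker, -2.38 as a mean over cells, -2.41 after thinning to 3000 UMIs, -2.56 with the same cluster makeup and -2.73 with TMM scaling. TMM moved the median of all genes by 0.11 for TDLN over tumour in mock mice and by 0.16 in NanoCa mice, where the summed log2 ratio was 0.18. The 2 genes that differed between tissues in NanoCa mice became 4 with Krt8 and Krt18 required, 4 without cells holding an immune marker and 4 as a mean over cells. In tumour T cells the 1 lower gene became 0 after thinning to 1000 UMIs. In tumour B cells the 1 lower gene became 2 with at least 10 UMIs, and 0 of 0 tested after thinning and with free RNA subtracted, where too few UMIs remained. In tumour NK cells 0 became 1 with at least 10 UMIs. In TDLN B cells the 4 lower genes became 3 higher ones with free RNA subtracted. In TDLN NK cells the 2 lower genes became 0 of 0 tested after thinning and 0 of 9 with free RNA subtracted. In TDLN monocytes and macrophages 9 became 1 of 1 tested after thinning, and in TDLN dendritic cells 0 became 1 with at least 10 UMIs. The share of carcinoma-like cells with at least 5 UMIs of the 10 genes was 14.7% in tumour NanoCa and 35.0% in tumour mock without thinning, and 0.326% and 1.66% at 1000 UMIs. In the TDLN it was 39.3% in NanoCa and 83.9% in mock without thinning, and 0% and 7.97% at 1000 UMIs. Where no construction explains a move, the cause was not tested. No paired analysis was possible because each group was 1 library. No library could be left out for the same reason.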

Other observations

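Cells in no named class also held the 10 GTPases. Cells of the carcinoma clusters that missed the Rhox5 or Ptprc threshold held 303 CPM of the 10 genes in tumour NanoCa and 569.5 in tumour mock, and 314 in TDLN NanoCa and 1135 in TDLN mock. Cells of unnamed clusters held 371.5 CPM in tumour NanoCa and 528 in tumour mock, and 348 in TDLN NanoCa and 626 in TDLN mock. In the TDLN these included the clusters rich in T cell or B cell markers that the T and B cell classes left out. Cells marked as doublets held 200.4 CPM in tumour NanoCa and 539 in tumour mock, and 456 in TDLN NanoCa and 544 in TDLN mock. NanoCa was lower than mock in each of these sets of cells. Over all kept cells the sum was 207 CPM in tumour NanoCa and 434 in tumour mock, and 412 in TDLN NanoCa and 871 in TDLN mock. All kept cells include the carcinoma-like cells, which gave 49980 of the 92402 UMIs of the 10 genes in TDLN mock. That difference thus in part repeats the carcinoma-like contrast. Plasmacytoid dendritic cells of the TDLN held 177 CPM in NanoCa and 202 in mock, with IRGs holding 60 of 120 such UMIs in NanoCa and 63 of 106 in mock, unlike the mature dendritic cells of that tissue. Neutrophils of the tumour held 474 CPM in NanoCa and 1074 in mock, with free RNA estimated at 57.4% in NanoCa and 52.8% in mock.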
